A study of Mus musculus with 6 samples.

Results

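The germline immunoglobulin variable segments are the Ighv segments of the heavy-chain locus on mouse chromosome 12, the Igkv segments of the kappa locus on chromosome 6 and the Iglv segments of the lambda locus on chromosome 16. RNA was sequenced from splenic CD4+ T cells of wild-type C57BL/6J mice in which dextran sulfate sodium (DSS) in the drinking water had caused colitis. There were 3 libraries from mice given Akkermansia muciniphila, a mucin-degrading gut bacterium, every day, and 3 from mice that had phosphate-buffered saline (PBS) in its place. All 6 libraries came from DSS-treated mice, so the comparison holds no healthy mouse. No source used here gives the age or sex of the mice, the way the cells were isolated or any pooling. The cell type entry reads CD4+ T cells for every library, but the free-text descriptions name CD4+, CD5+ and CD6+ T cells for libraries 1, 2 and 3 of both groups, and 1 batch is recorded for all. The members were selected on their symbol and on a summed count of at least 20 reads over the 6 libraries, a sum that does not use the groups. That rule kept 147 of 348 listed V segments, of 54532 listed genes: 73 of 185 Ighv, 71 of 160 Igkv and all 3 Iglv.

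A B cell joins 1 heavy-chain V segment to a D and a J segment, and 1 light-chain V segment to a J segment, and transcribes the product with a constant gene. The V segment gives most of the antigen-binding domain, including the first and second antigen-contacting loops, and the junction with J forms the third loop. Different B cells use different segments, so the V reads of a tissue reflect how many B cells and antibody-secreting plasma cells it holds, which segments they carry and how strongly each transcribes them. A plasma cell holds far more immunoglobulin mRNA than a resting B cell. T cells rearrange T cell receptor genes and make no antibody.

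The sequences below are the last 180 coding bases of 11 germline segments, from GENCODE M21 transcripts matched by gene ID. Capitals run from the codon of the conserved second cysteine to the end of the germline segment, where joining to J starts. The first set holds 4 segments that were higher with Akkermansia, 1 per family, 2 of them (Igkv3-1 and Iglv3) in every repeat of the test that left out 1 library.

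Igkv3-1: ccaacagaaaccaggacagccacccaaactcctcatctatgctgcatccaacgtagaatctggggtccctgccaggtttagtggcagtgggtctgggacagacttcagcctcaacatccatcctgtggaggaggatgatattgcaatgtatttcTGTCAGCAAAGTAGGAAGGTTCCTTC

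Igkv1-135: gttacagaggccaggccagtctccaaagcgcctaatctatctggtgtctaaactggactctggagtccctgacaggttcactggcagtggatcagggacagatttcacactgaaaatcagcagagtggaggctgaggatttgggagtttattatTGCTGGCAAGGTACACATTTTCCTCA

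Ighv1-55: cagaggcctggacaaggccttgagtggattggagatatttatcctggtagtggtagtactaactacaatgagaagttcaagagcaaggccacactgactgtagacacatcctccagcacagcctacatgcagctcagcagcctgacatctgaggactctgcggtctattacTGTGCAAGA

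Iglv3: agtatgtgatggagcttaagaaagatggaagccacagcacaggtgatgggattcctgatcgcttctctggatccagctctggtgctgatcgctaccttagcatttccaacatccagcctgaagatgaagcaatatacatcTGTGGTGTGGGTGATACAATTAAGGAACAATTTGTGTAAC

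The second set holds the segments with the most reads, or near relatives of those above, none of which passed the test over all 6 libraries. Over the coding bases that could be aligned, Igkv1-110 and Igkv1-117 were 97.2% identical, Iglv1 and Iglv2 96.9%, and Ighv1-53 and the higher segment Ighv1-55 95.4%, whereas Iglv1 and Iglv3 were 60.8% identical. Igkv6-32 is shown because 1 library held most of its reads.

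Igkv1-110: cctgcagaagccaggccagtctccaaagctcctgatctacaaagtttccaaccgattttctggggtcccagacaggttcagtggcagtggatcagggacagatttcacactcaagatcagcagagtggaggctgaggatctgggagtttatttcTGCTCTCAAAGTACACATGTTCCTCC

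Igkv1-117: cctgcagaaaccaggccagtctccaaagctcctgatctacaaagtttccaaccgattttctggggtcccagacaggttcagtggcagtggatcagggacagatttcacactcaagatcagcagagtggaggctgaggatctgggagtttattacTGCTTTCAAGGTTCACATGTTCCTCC

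Igkv6-32: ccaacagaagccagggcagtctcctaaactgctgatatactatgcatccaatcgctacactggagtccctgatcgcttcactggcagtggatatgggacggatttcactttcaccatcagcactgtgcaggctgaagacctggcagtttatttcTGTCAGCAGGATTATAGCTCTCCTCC

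Ighv1-26: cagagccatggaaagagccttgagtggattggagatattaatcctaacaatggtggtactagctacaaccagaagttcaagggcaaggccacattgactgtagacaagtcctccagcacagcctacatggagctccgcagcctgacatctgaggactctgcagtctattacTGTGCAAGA

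Ighv1-53: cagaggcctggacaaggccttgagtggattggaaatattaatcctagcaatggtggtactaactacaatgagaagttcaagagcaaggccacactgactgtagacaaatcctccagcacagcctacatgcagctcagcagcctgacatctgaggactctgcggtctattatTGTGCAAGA

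Iglv1: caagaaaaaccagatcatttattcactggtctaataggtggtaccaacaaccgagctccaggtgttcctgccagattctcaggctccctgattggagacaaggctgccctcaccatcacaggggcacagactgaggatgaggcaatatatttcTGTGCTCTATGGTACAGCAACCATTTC

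Iglv2: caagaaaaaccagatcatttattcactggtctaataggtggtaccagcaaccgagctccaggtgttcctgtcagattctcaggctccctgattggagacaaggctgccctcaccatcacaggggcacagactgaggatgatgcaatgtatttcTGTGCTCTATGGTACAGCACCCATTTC

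Such likeness bears on how reads are assigned. Of the 147 members, 92 shared no stretch of 100 bases with another V segment in the GENCODE M21 transcripts, 55 shared at least 1, and 2 shared more than 50% of such stretches. Those 2, Ighv1-62-2 (90.3% shared, most with Ighv1-71) and Igkv6-20 (55.8%, most with Igkv6-29), are uncertain, since the counting could split their reads. Igkv1-110 shared 16.2% of its stretches with Igkv1-117, and Igkv3-1 and Iglv3 shared none. No source used here says how reads with several matches were counted, or whether strand was used.

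All 147 members are annotated as functional V genes in GENCODE M21. Of the 130 listed V pseudogenes, 24 had at least 1 read, and the highest reached 19 reads in all, so none is a member. Members held 20 to 1696 reads over the 6 libraries, with a median of 106. Just inside the minimum were Igkv4-80 with 20 reads and Ighv1-11 and Ighv1-43 with 21 each, and just outside were Ighv8-5, Igkv1-122 and Igkv2-107 with 19 each. The libraries held 15032257 to 16677923 reads, of which V segments took 5365, 4056 and 4144 in the Akkermansia libraries, against 5245, 1630 and 2246 in the PBS libraries. A count of 0 allows up to 3 reads, or 0.181 to 0.2 CPM (counts scaled to a common library size) by library, and covers counting error only. The number of members at 0 reads was 2, 1 and 3 with Akkermansia, and 2, 22 and 17 with PBS. T cell genes were abundant in every library: Cd4, the co-receptor, had 14090, 12750 and 13719 reads with Akkermansia and 11293, 11006 and 10755 with PBS. None of the 14 B cell markers listed was at 0 reads in any library, so the V reads were measured in RNA that also held B cell transcripts. In such bulk RNA, fewer cells of a type and less RNA per cell cannot be told apart.

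V segments of all 3 loci stood at one level in the 3 Akkermansia libraries and PBS 1, and at a lower level in PBS 2 and PBS 3. Summed over the 73 Ighv members, the level was 149, 111 and 118 CPM (scaled by edgeR's TMM factors) with Akkermansia, against 130, 35.4 and 55.7 CPM with PBS. The 71 Igkv members summed to 161, 132 and 128 CPM with Akkermansia, against 153, 60.5 and 68.8 CPM with PBS. The 3 Iglv members summed to 29.5, 27.2 and 28.0 CPM with Akkermansia, against 33.2, 11.1 and 13.2 CPM with PBS. In each locus the groups overlapped through PBS 1 alone, which was the highest of the 6 for Iglv and between Akkermansia libraries for Ighv and Igkv. All members together averaged 295 ± 38.5 CPM over the Akkermansia libraries, against 187 ± 113 CPM over the PBS libraries (SD, n = 3 each). The log2 ratio of the group means was 0.77 for Ighv, 0.58 for Igkv and 0.56 for Iglv, and without PBS 1 it was 1.47, 1.12 and 1.21. These sums are descriptions with no test. The study's design text calls the libraries of each group biological replicates, but no source used here says that each came from a separate mouse. The spread between them, and so the p-values below, is read as biological on that wording alone.

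**Figure D1:**
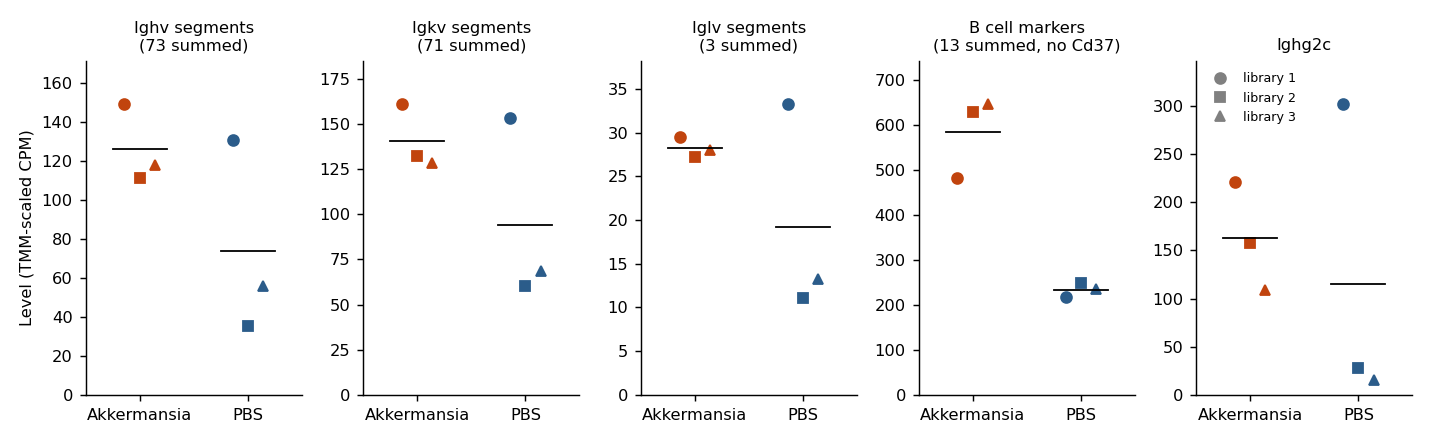
Level in each library (TMM-scaled CPM, linear axis from 0) of the summed Ighv, Igkv and Iglv members, of 13 summed B cell markers and of the constant gene Ighg2c, with points for libraries 1 to 3 of each group and a line at the group mean. PBS 1 lies at the Akkermansia level in the 3 V panels and above it for Ighg2c at 301 CPM, and beside the other PBS libraries for the B cell markers at 218 CPM.

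Each gene was tested with edgeR's quasi-likelihood test, and a gene was called at a Benjamini-Hochberg adjusted p of 0.05 over all 15138 genes tested. Of the 147 members, 97 passed the filter on low counts, and 10 of these (10.3%) were called higher with Akkermansia, against 7.32% of all genes tested. No member was called lower, where 8.28% of all genes were. At an unadjusted p of 0.05 the same test had 24 members higher and 0 lower. The share of all genes at that level is not given, so no background stands beside these counts. The median unadjusted p of this test over all genes was 0.202. DESeq2, with 14 members higher (14.4%, against 7.74% of all genes), also called 0 lower, and 0 lower at its unadjusted p of 0.05. The share of members called higher was thus near the background in edgeR's test and further above it with DESeq2. The 10 were Igkv3-1, Iglv3, Igkv1-135, Igkv12-44, Igkv4-91, Ighv1-55, Ighv1-74, Ighv9-4, Ighv1-19 and Ighv1-81, which is 5 of 46 tested Ighv, 4 of 48 Igkv and 1 of 3 Iglv. Of the 97, Ighv1-74 and Ighv9-4 passed the filter in the Akkermansia libraries alone and so had to differ, and both are among the 10. The Akkermansia libraries lay wholly above the PBS libraries for 21 of the 97 (21.6%, against 17.1% of all genes) and wholly below for 1, Igkv4-86 (17.8% of all genes). The log2 fold change (Akkermansia over PBS) was above 0 for 85 of the 97, with medians of 0.69 for Ighv, 0.48 for Igkv and 0.62 for Iglv, and 0.59 over all 97, against -0.01 over all genes. With every gene of at least 20 reads tested, 13 of all 147 members were higher (6.12% of 18213 genes) and 125 had a log2 fold change above 0.

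Without PBS 1 the same test called 21 of the 97 members higher (21.6%, against 4.51% of all genes), 8 of the 10 among them, and the median log2 fold change was 1.19. Members called only then included the abundant Iglv1 (1.16, adjusted p = 0.00183), Ighv1-26 (1.67, 0.0231) and Igkv1-110 (1.20, 0.0343). Without Akkermansia 1, 2 or 3 in turn, 4, 4 and 5 members were called (4.12, 4.12 and 5.15% of those tested, against 4.17, 3.59 and 3.47% of all genes). Without PBS 2 or PBS 3 in turn, 8 and 7 were called (8.25 and 7.22%, against 7.65 and 8.48% of all genes). These 5 shares were near the background, and those without Akkermansia 1 or PBS 3 were below it.

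**Figure D2:**
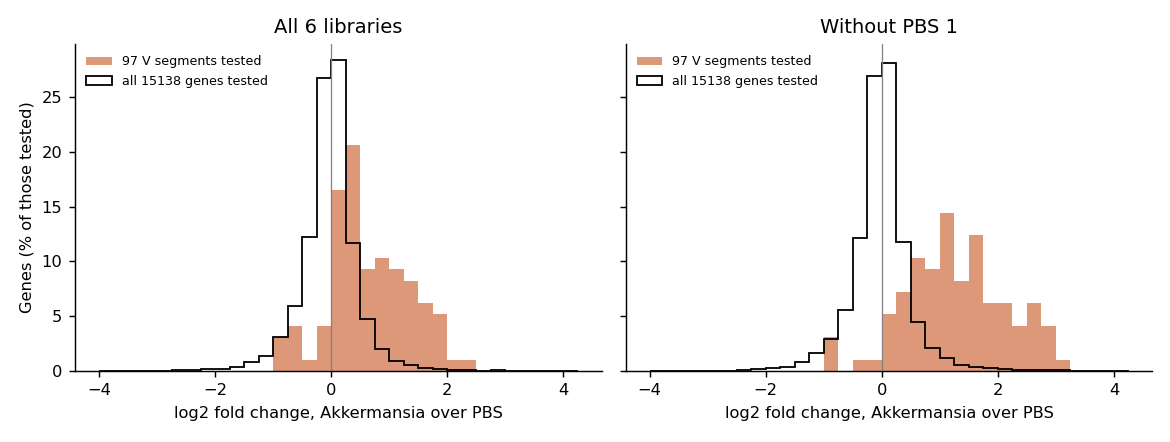
Distribution of log2 fold changes (Akkermansia over PBS, x axis) as a percentage of the genes tested (y axis), for the 97 tested V segments (filled) and all 15138 tested genes (line), with all 6 libraries on the left and without PBS 1 on the right. The V segments lie mostly above 0 with a median of 0.59, and of 1.19 without PBS 1, while the genes as a whole centre on 0.

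Of the kappa segments, 4 rose, each with all 3 Akkermansia libraries above all 3 PBS libraries. Igkv3-1 had 31, 34 and 35 reads with Akkermansia, against 14, 6 and 5 with PBS, a log2 fold change of 2.06 ± 0.44 (SE, edgeR adjusted p = 0.00773). Igkv1-135, the most abundant of the 4, had 86, 76 and 86 reads with Akkermansia, against 50, 36 and 46 with PBS, a log2 fold change of 0.98 ± 0.23 (adjusted p = 0.0127). The 3 Akkermansia libraries lay close together for both, and PBS 1 was the highest PBS library for both while still below every Akkermansia library. Igkv12-44 had 40, 75 and 25 reads with Akkermansia, against 13, 2 and 13 with PBS (2.39 ± 0.57, adjusted p = 0.0160), and Akkermansia 2 held the most. Igkv4-91 had 30, 26 and 27 reads with Akkermansia, against 13, 4 and 8 with PBS (1.79 ± 0.45, adjusted p = 0.0176). Igkv1-135 was no longer called without Akkermansia 3 (adjusted p = 0.0549), Igkv12-44 without Akkermansia 2 (0.0726), and Igkv4-91 without any 1 of the Akkermansia libraries (up to 0.0573), whereas Igkv3-1 was called in all 6 of these repeats (up to 0.0360). In the repeat without PBS 1, Igkv3-1 and Igkv4-91 had to differ, as given above.

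Of the heavy-chain segments, 5 passed the test, 4 of them of the Ighv1 family, the largest in the mouse. That family held 24 of the 46 Ighv segments tested. Ighv1-74 and Ighv9-4, which had to differ to enter the test, are 2 of the 5. Ighv1-55 had 91, 74 and 32 reads with Akkermansia, against 33, 9 and 15 with PBS (log2 fold change 1.85 ± 0.48, SE, edgeR adjusted p = 0.0245). Here Akkermansia 3 and PBS 1 lay 1 read apart, although Akkermansia 3 came from the smaller library. Ighv1-81 had 58, 49 and 45 reads with Akkermansia, against 27, 2 and 14 with PBS (1.89 ± 0.53, adjusted p = 0.0353), and Ighv1-19 had 44, 38 and 45 reads with Akkermansia, against 26, 4 and 5 with PBS (1.93 ± 0.54, adjusted p = 0.0331). PBS 1 was the highest PBS library for both, at 1.63 and 1.57 CPM, where PBS 2 and PBS 3 were at most 0.858 CPM. Ighv1-74 and Ighv9-4 had few reads, and their tests support nothing by themselves. Ighv1-74 had 24, 15 and 17 with Akkermansia, against 7, 4 and 7 with PBS (1.68 ± 0.48, adjusted p = 0.0322), and Ighv9-4 had 15, 18 and 10 with Akkermansia, against 4, 5 and 2 with PBS (1.99 ± 0.58, adjusted p = 0.0331). Every one of these 5 lost its call when some library was left out. Ighv1-74 lost it without any 1 of the 6 (adjusted p 0.0502 to 0.123), Ighv9-4 without any but PBS 2 (up to 0.120) and Ighv1-19 without any but PBS 1 (up to 0.108). Ighv1-81 lost it without any Akkermansia library or PBS 3 (up to 0.107), and Ighv1-55 without Akkermansia 1, Akkermansia 2, PBS 2 or PBS 3 (up to 0.0851). Ighv1-19 kept its call without PBS 1, where it had to differ, as given above.

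**Figure D3:**
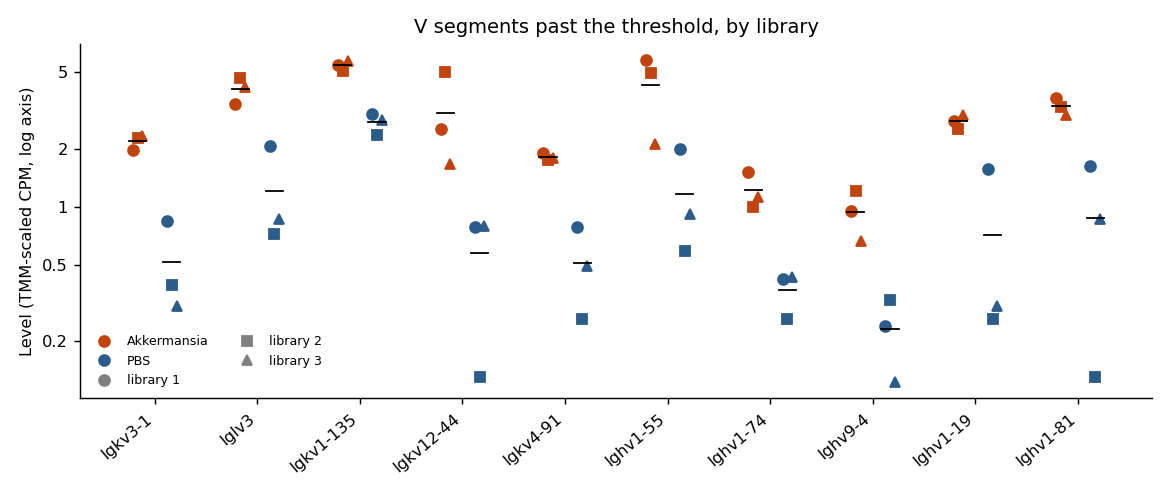
Level (TMM-scaled CPM, log axis) of the 10 V segments past the threshold in each library, Akkermansia left of PBS for each segment, with a line at the group mean. All 3 Akkermansia points lie above all 3 PBS points for each segment, and PBS 1 (circle) is the highest PBS point for 7 of the 10.

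The lambda locus of these mice has 3 V segments, and they differed. Iglv3 had 54, 70 and 63 reads with Akkermansia, against 34, 11 and 14 with PBS (log2 fold change 1.74 ± 0.37, SE, edgeR adjusted p = 0.00822), and it was called in all 6 repeats without 1 library (up to 0.0403). Iglv1, at a mean of 45.8 FPKM (a read count scaled by transcript length and library size) the most abundant V segment of all, had 346, 273 and 318 reads with Akkermansia, against 470, 127 and 162 with PBS (0.39 ± 0.54, adjusted p = 0.701). PBS 1 held more Iglv1 than any Akkermansia library, and PBS 2 and PBS 3 held less than every one of them. Iglv2, the near relative of Iglv1, had 66, 64 and 42 reads with Akkermansia, against 46, 31 and 40 with PBS (0.62 ± 0.28, adjusted p = 0.150), and its groups did not overlap in CPM, though only just. Within the locus, Iglv3 took 11.6, 17.2 and 14.9% of V reads with Akkermansia, against 6.18, 6.51 and 6.48% with PBS. Its lowest share with Akkermansia had an exact 95% interval of 8.83 to 14.8%, and those of the PBS libraries reached 8.53, 11.3 and 10.6%. Iglv1 took 74.2, 67.1 and 75.2% with Akkermansia, against 85.5, 75.1 and 75% with PBS, highest in PBS 1. Lambda V segments together made up 14.97 to 17.3% of light-chain V FPKM with Akkermansia and 14.96 to 17.1% with PBS.

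The most abundant Ighv and Igkv segments were taken by mean FPKM over all 6 libraries, and of these 16 only Igkv1-135 passed the test. Ighv1-26, the first in its locus at 24.1 FPKM, had 214, 130 and 164 reads with Akkermansia, against 180, 30 and 80 with PBS (log2 fold change 0.89 ± 0.60, SE, edgeR adjusted p = 0.403). PBS 1 lay between Akkermansia libraries, and PBS 2 and PBS 3 below them. Ighv3-6, at 17.3 FPKM, had 212, 59 and 91 reads with Akkermansia, against 139, 35 and 37 with PBS (0.85 ± 0.76, adjusted p = 0.536), and Ighv1-53, at 15.1 FPKM, had 151, 67 and 116 with Akkermansia, against 72, 29 and 64 with PBS (1.09 ± 0.34, adjusted p = 0.0548). The levels of these 3 varied by more than 2-fold within a group, so their order by FPKM does not hold in every library. The other 5 of the 8 (Ighv9-3, Ighv5-17, Ighv1-18, Ighv6-3 and Ighv10-1) averaged 7.33 to 10.4 FPKM, with log2 fold changes of 0.02 to 1.60, and none passed.

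Igkv1-110 had 169, 153 and 129 reads with Akkermansia, against 163, 40 and 96 with PBS (log2 fold change 0.67 ± 0.41, SE, edgeR adjusted p = 0.321). Its near relative Igkv1-117 had 158, 130 and 99 reads with Akkermansia, against 152, 82 and 132 with PBS (0.15 ± 0.22, adjusted p = 0.699). The groups overlapped for both, and their mean levels were 19.8 and 19.7 FPKM. Igkv1-135, of the same family and 79.8% identical to Igkv1-110, was the segment described above that rose. Of the remaining 5 of the 8 Igkv segments, Igkv10-94 had 96, 78 and 64 reads with Akkermansia, against 59, 12 and 35 with PBS (1.24 ± 0.41, adjusted p = 0.0671). Igkv10-96, Igkv6-23 and Igkv4-59 had log2 fold changes of 0.45 to 0.70 and did not pass.

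Igkv6-32 went the other way through 1 library. It had 51, 26 and 31 reads with Akkermansia, against 174, 12 and 13 with PBS, a log2 fold change of -0.79 ± 1.20 (SE, edgeR adjusted p = 0.727), and of 1.55 without PBS 1 (adjusted p = 0.0533). PBS 1 was the highest library and PBS 2 and PBS 3 the lowest. In PBS 1 it was the first kappa segment, with 6.86% of Igkv reads (exact 95% interval 5.91 to 7.92%), against 1.16 and 1.30% in the other PBS libraries and 1.31 to 2.0% with Akkermansia. These intervals cover counting error only, since reads without molecular identifiers are not independent molecules.

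PBS 1 differed from the other PBS libraries across most members. It lay above both for 109 of 147 members (55 of 73 Ighv, 51 of 71 Igkv and 3 of 3 Iglv). It lay above the mean of the Akkermansia libraries for 71 members, while PBS 2 did so for 10 and PBS 3 for 16. It lay above every Akkermansia library for 43 members, PBS 2 for 3 and PBS 3 for 7. PBS 2 and PBS 3 both lay below every Akkermansia library for 86 members. These counts take in the 50 members with too few reads to be tested, and 22 and 17 members had 0 reads in PBS 2 and PBS 3. The same counts over all genes are not given, so no background stands beside them. The library with the highest CPM was Akkermansia 1 for 52 members, Akkermansia 2 for 23, Akkermansia 3 for 25, PBS 1 for 41, PBS 2 for 1 and PBS 3 for 5.

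**Figure D4:**
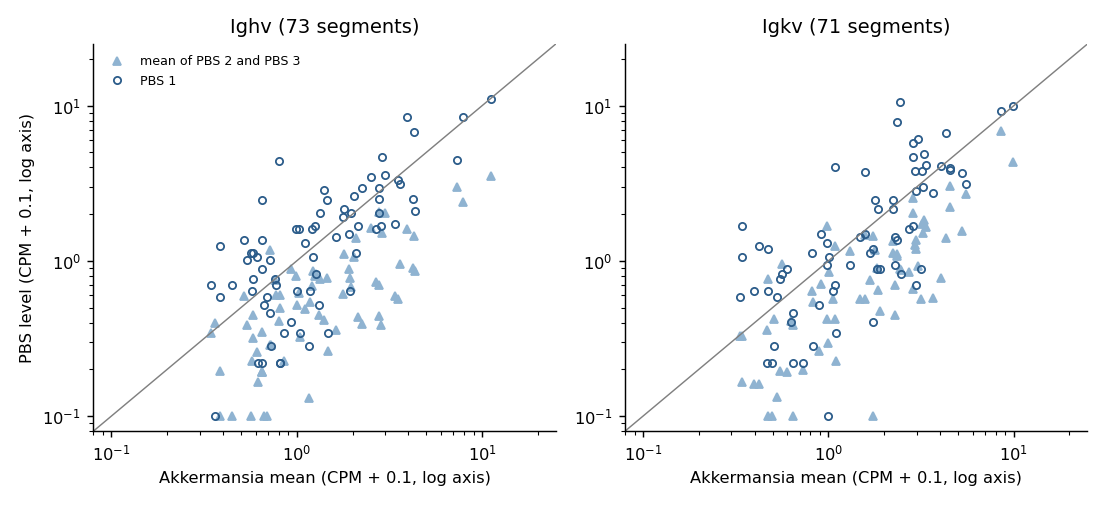
Level of each Ighv and Igkv member in PBS (y axis, CPM + 0.1, log) against its Akkermansia mean (x axis, CPM + 0.1, log), with PBS 1 as open circles, the mean of PBS 2 and PBS 3 as triangles, and a line where both axes are equal. PBS 1 scatters on both sides of the line, above the Akkermansia mean for 37 of 73 Ighv and 33 of 71 Igkv members, whereas most triangles lie below it.

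Some members were carried by 1 library. For 13 of the 147, more than 50% of the summed CPM came from a single library, 8 of them from PBS 1, 1 from Akkermansia 1, 2 from Akkermansia 2, 2 from Akkermansia 3 and 0 from PBS 2 or PBS 3. These examples were chosen after their values were seen and, apart from Igkv6-32, were not among the 97 tested. Ighv3-1 had 7, 7 and 18 reads with Akkermansia, against 71, 2 and 8 with PBS. Igkv4-90 had 0, 37 and 3 reads with Akkermansia, against 0, 6 and 0 with PBS, so that Akkermansia 2 held 80.6% of its CPM. Igkv1-133 had 14, 6 and 55 reads with Akkermansia, against 5, 0 and 0 with PBS. Single segments with a high count in 1 library thus occurred in both groups.

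Families group V segments by sequence likeness, and those with at least 3 members moved with their loci. Not all smaller families did. Igkv11 (ratio of the means 0.76), Igkv9 (0.80), Ighv13 (0.98) and Ighv8 (0.998), named after their values were seen, were below 1, and the other smaller families were above 1. All 6 Ighv and 8 Igkv families with at least 3 members had a higher mean with Akkermansia, but the groups did not overlap for 0 of the Ighv and 2 of the Igkv families. Ighv1, with 38 members and 54.6% of Ighv CPM, summed to 90.6, 61.1 and 67.5 CPM with Akkermansia, against 62.2, 15.6 and 30.7 CPM with PBS. PBS 1 lay just above Akkermansia 2, and the ratio of the means was 2.02, and 3.16 without PBS 1. The other Ighv families had ratios of 1.23 for Ighv5 (8 members), 1.45 for Ighv3 (3), 1.63 for Ighv14 (4), 1.85 for Ighv9 (4) and 1.89 for Ighv2 (6). PBS 1 was above the Akkermansia mean for Ighv5, Ighv3, Ighv14 and Ighv9. Without PBS 1 these ratios were 2.29 for Ighv5, 2.97 for Ighv3, 4.56 for Ighv14, 3.47 for Ighv9 and 2.96 for Ighv2, in another order. Without PBS 3, Ighv5 was just lower with Akkermansia (log2 ratio -0.01).

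Of the Igkv families, Igkv12, with 6 members, had the highest ratio among those with at least 3. It summed to 7.78, 10.3 and 5.90 CPM with Akkermansia, against 3.99, 2.10 and 3.31 CPM with PBS, a ratio of 2.56, and all Akkermansia libraries lay above all PBS libraries. Igkv1, with 6 members and 18.5% of Igkv CPM, summed to 28.2, 25.6 and 25.7 CPM with Akkermansia, against 23.3, 10.7 and 16.9 CPM with PBS, a ratio of 1.56, and its groups did not overlap either. Igkv4 has the most members (17) and a ratio of 1.55. Igkv6, the family of Igkv6-32, summed to 23.8, 13.4 and 15.4 CPM with Akkermansia, against 30.3, 6.24 and 5.21 CPM with PBS, a ratio of 1.26, and 3.06 without PBS 1. Without PBS 2 or PBS 3, Igkv6 was just lower with Akkermansia (log2 ratio -0.02 and -0.06). PBS 1 was the highest library for Igkv6, as it was for Igkv3 and Igkv8. The ratios of the remaining families, Igkv3, Igkv5, Igkv8 and Igkv14, ran from 1.40 to 1.56, and that of Igkv3 was 2.83 without PBS 1.

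**Figure D5:**
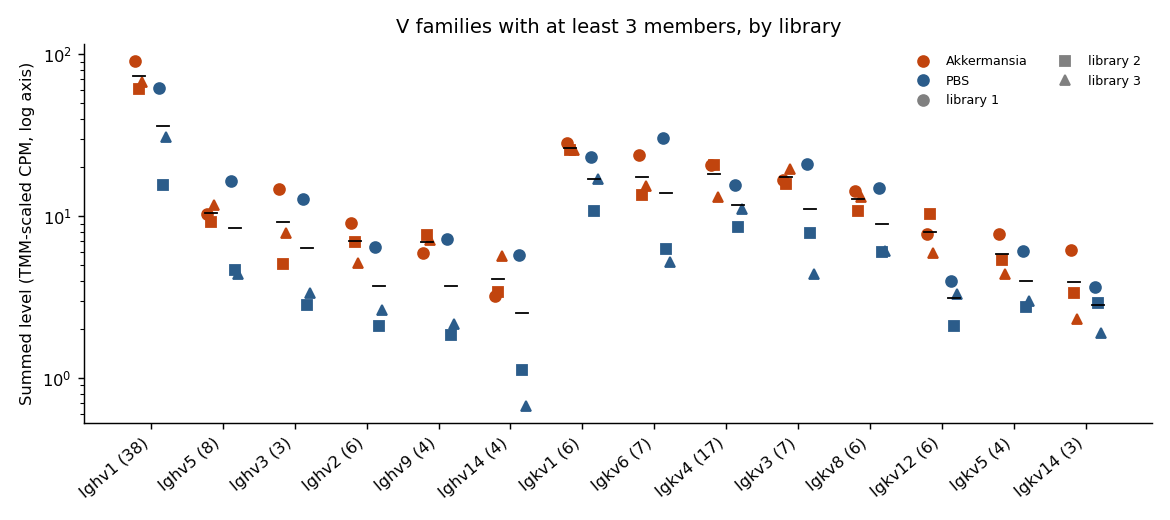
Summed level (TMM-scaled CPM, log axis) of the V families with at least 3 members in each library, number of members in brackets, Akkermansia left of PBS, with a line at the group mean. The groups are apart for Igkv1 and Igkv12, and PBS 1 (circle) lies above the Akkermansia mean in 4 of 6 Ighv and 4 of 8 Igkv families.

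The make-up of each locus was compared as shares of its V reads, with no test. For Ighv the effective number of segments (the inverse Simpson index, the number of equally used segments that would give the same evenness) was 28.6, 36.4 and 35 with Akkermansia, against 33.2, 33.3 and 32.0 with PBS, and the groups overlapped. For Igkv it was 38.8, 36.1 and 37.5 with Akkermansia, against 32.9, 33.9 and 25.6 with PBS, so every Akkermansia library was above every PBS library. Drawn down to the 922 Igkv reads of the shallowest library, the expected number of segments seen was 66.0 to 69.1 with Akkermansia and 61.1 to 67.2 with PBS. For Ighv, drawn down to 539 reads, it was 63.4 to 70.1 with Akkermansia and 58.0 to 66.4 with PBS, so these ranges overlapped in both loci. Ighv1-26 was the first Ighv segment in all 3 Akkermansia libraries and in PBS 1 and PBS 3, with 7.81 to 9.20% with Akkermansia and 8.33 and 8.81% in those PBS libraries. Ighv3-6 was first in PBS 2 with 6.49%, where Ighv1-26 had 5.57%. Igkv1-110 was first among kappa segments in all Akkermansia libraries with 6.64 to 7.71%, and Igkv1-117 in PBS 2 and PBS 3 with 8.89 and 11.8%.

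PBS 3 also held 5.79% of its Igkv reads on Igkv15-103, named after its values were seen, where the other PBS libraries had 1.03 and 1.52% and Akkermansia libraries 1.16 to 3.35%. Read counts of the segments differed between libraries by more than reads drawn from 1 common mixture would. For Ighv the chi-square per degree of freedom was 5.30 to 5.68 between Akkermansia libraries, 4.45 to 6.56 between PBS libraries and 3.34 to 8.60 between the groups. For Igkv it was 4.98 to 5.96 between Akkermansia libraries, 4.98 to 8.31 between PBS libraries and 4.99 to 10.1 between the groups. This measure grows with the number of reads, and PBS 2 and PBS 3 had the fewest, so the ranges cannot be set against each other. Among the 4 deeper libraries, the Igkv values of PBS 1 against Akkermansia 1, 2 and 3 were 6.42, 10.1 and 7.89, all above those between Akkermansia libraries. The Ighv values did not share this: they were 8.60, 5.26 and 4.67. Those against Akkermansia 2 and 3 lay below those between Akkermansia libraries.

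The heavy-chain and kappa loci were each split, by the gene order in GENCODE M21 (GRCm38), into 3 parts with near-equal numbers of listed segments. For the heavy-chain locus, the ratio of Akkermansia to PBS means was 1.46 in the part that starts at Ighv5-1 and 1.67 in the middle. In the part that ends at Ighv1-86 it was 2.06. Without PBS 1 the ratios were 2.60, 2.58 and 3.14. For the kappa locus they were 1.44 in the part from Igkv2-137, 1.65 in the middle and 1.5 in the part that ends at Igkv3-1, and without PBS 1 they were 1.89, 2.07 and 2.57. All 6 parts had a higher mean with Akkermansia.

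Constant genes, which encode the antibody classes joined to these V segments, rose in part: with Jchain, 12 genes were tested and 4 rose. Ighd, the IgD constant gene of mature resting B cells, had 680, 949 and 1046 reads with Akkermansia, against 440, 501 and 425 with PBS (log2 fold change 1.04 ± 0.18, SE, edgeR adjusted p = 0.00773). Its groups were apart, and PBS 1 lay between the other PBS libraries. Ighm, the IgM constant gene, rose by 0.25 ± 0.07 (adjusted p = 0.0267), and the lambda constant genes Iglc2 (0.80 ± 0.16, adjusted p = 0.00588) and Iglc3 (0.98 ± 0.26, adjusted p = 0.0250) rose too. Iglc2 and Iglc3 are near-identical copies, so their reads are uncertain.

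Other constant genes had PBS 1 apart from PBS 2 and PBS 3 as the V segments did. Ighg2c, a switched IgG class of C57BL/6 mice, had 3493, 2369 and 1651 reads with Akkermansia, against 4991, 428 and 259 with PBS (log2 fold change 0.50 ± 1.27, SE, edgeR adjusted p = 0.845). PBS 1 held the most of all 6. Iglc1, a lambda constant gene that Iglv1 can join, had 366, 263 and 256 reads with Akkermansia, against 475, 74 and 130 with PBS, the same order of libraries as Iglv1 but for Akkermansia 2 and 3. Igkc, the kappa constant gene, had 6384, 4860 and 5183 reads with Akkermansia, against 5230, 2492 and 2761 with PBS (0.72 ± 0.32, adjusted p = 0.219). Igkv CPM came to 0.398, 0.408 and 0.374 of Igkc CPM with Akkermansia, and 0.485, 0.370 and 0.406 with PBS, highest in PBS 1. Igha, the IgA constant gene of mucosal antibody, had 7573, 5669 and 7930 reads with Akkermansia, against 1772, 895 and 2775 with PBS (2.04 ± 0.45, adjusted p = 0.0568), and PBS 1 lay between the other PBS libraries.

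B cell surface and lineage markers rose in 13 of 14 cases, with a median log2 fold change of 1.29, and here PBS 1 did not stand with the Akkermansia libraries. Without Cd37, an abundant leukocyte tetraspanin that did not pass, the 13 summed to 481, 627 and 645 CPM with Akkermansia, against 218, 248 and 234 CPM with PBS. V CPM per unit of this sum was 0.706, 0.431 and 0.426 with Akkermansia, against 1.46, 0.432 and 0.587 with PBS, so PBS 1 had the most V reads per B cell marker read. Leaving out Cd37 was decided after seeing the data. With it the sums were 773, 923 and 927 CPM with Akkermansia and 493, 490 and 494 CPM with PBS. The part of the B cell markers in the V differences was not tested.

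Of the 9 tested genes on the plasma cell list, 2 fell with Akkermansia in edgeR's test and the others did not pass. The 2 were the secretory regulators Xbp1 (-0.37 ± 0.07, adjusted p = 0.00430) and Prdm1 (-0.59 ± 0.17, adjusted p = 0.0325), both of which T cells also express. The list summed to 269, 229 and 246 CPM with Akkermansia and 251, 184 and 202 CPM with PBS, and PBS 1 was within the Akkermansia range. Jchain, which links secreted IgM and IgA, had 2013, 1461 and 1679 reads with Akkermansia, against 1299, 533 and 1005 with PBS (log2 fold change 0.94 ± 0.33, SE, adjusted p = 0.146). The groups were apart, and PBS 1 was the highest of its group. Tnfrsf17, the plasma cell receptor BCMA, had at most 3 reads in any library. The part of plasma cell genes in the V differences was not tested.

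Genes that rearrange, switch or transcribe the V segments changed in few cases. Rag2, a recombinase subunit, and Vpreb2, a surrogate light chain, had 0 reads in all 6 libraries, and Rag1 had 0, 2 and 0 with Akkermansia, against 11, 0 and 2 with PBS. Dntt, which adds bases at the junctions, had 90, 80 and 105 reads with Akkermansia, against 64, 32 and 60 with PBS (log2 fold change 0.89 ± 0.26, SE, edgeR adjusted p = 0.0343). On the switch and hypermutation list the mismatch repair gene Pms2 fell (-0.33 ± 0.10, adjusted p = 0.0477). On the germinal centre list S1pr2, a receptor that holds cells in the follicle, rose (0.56 ± 0.15, adjusted p = 0.0247). Pou2af1, the B cell coactivator at the octamer motif of V promoters, rose by 0.39 ± 0.11 (adjusted p = 0.0259), Pou2f1, its ubiquitous octamer-binding partner, fell by 0.30 on the log2 scale (adjusted p = 0.0153), and Pou2f2 did not pass (0.36, adjusted p = 0.108). On the marginal zone and B-1 list 4 of 6 rose, Cr2, Cd9, S1pr3 and Dtx1. On the T cell list 4 of 9 rose, Cd3e, Cd4, Lck and Cd5, by log2 fold changes of 0.24 to 0.36.

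J segments, the other germline part of each V domain, had few reads. Of 14 listed, 8 were tested and 2 passed the test. Ighj4 had 74, 73 and 53 reads with Akkermansia, against 29, 34 and 34 with PBS (log2 fold change 1.10 ± 0.27, SE, edgeR adjusted p = 0.0146), and Igkj2 had 15, 23 and 14 with Akkermansia, against 5, 8 and 3 with PBS (1.74 ± 0.54, adjusted p = 0.0439). Igkj2 passed the filter in the Akkermansia libraries alone and so had to differ. The groups were apart for both, and PBS 1 was not set apart from the other PBS libraries. Summed over the list, J segments came to 14.2, 16.2 and 15.8 CPM with Akkermansia, against 8.64, 7.81 and 6.99 CPM with PBS.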

How the data were processed

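Splenic CD4+ T cell RNA was poly(A)-selected and sequenced, per the labels' protocols, in 3 Akkermansia and 3 PBS libraries. The authors deposited raw read counts per gene and FPKM values in 2 separate tables. The reads were mapped to GRCm39, per the submitters' processing notes, and aligner, counter and strand setting are not stated by any source used here. GENCODE M21 (GRCm38) served only for segment class, chromosome, gene order and transcript sequence, matched by gene ID, and no coordinates are given since the builds differ.

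Counts were tested with edgeR 4.0.16 (R 4.3.3) (two-sided robust quasi-likelihood F test, TMM factors) on genes that passed filterByExpr (count of 10, total of 15), adjusted over all genes tested. Tests on simulated data preceded this. SE is the absolute log2 fold change divided by the square root of F. Libraries held 15032257 to 16677923 reads, V segments 1630 to 5365 of them. CPM used TMM-scaled library totals, and FPKM, on the deposited scale, served to compare levels between genes. Across genes, pairs of libraries of 1 group differed by 4.25 to 17.8 times sampling variance, so none was counted as a duplicate. Akkermansia pairs reached 5.77. PBS 2 and PBS 3 were the most unlike pair at 17.8, against 14.5 and 13.2 for PBS 1 with PBS 2 and PBS 3. PBS 1 was thus not the PBS library set apart across genes. Alternatives were DESeq2 1.42.0, limma 3.58.1 (voom on counts, and log2 of FPKM plus 1 or 0.1), RLE factors, other filters, a replicate block, library totals (added after seeing the data) and each library left out. The segments named are the 8 Ighv, 8 Igkv and 3 Iglv of highest mean FPKM, every member called, families of at least 3 members and the segments nearest the minimum of 20 reads. Members and gene lists were chosen with earlier results of these data known. Values of some listed genes are not reported here.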

Additional observations from a re-analysis of the deposited data

How the results depend on the processing

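The number of V segments called higher, 10 in edgeR's test, was 7 to 14 with DESeq2, limma-voom, limma on log2(FPKM + 1) or log2(FPKM + 0.1), RLE factors, library totals or a minimum of 20 reads. That was 7.22 to 14.4% of the members tested, against 4.91 to 7.74% of all genes. No member was called lower in any of these, where 5.42 to 8.44% of all genes were. It was 30 of 147 with no filter on low counts (20.4%, against 5.45% of all genes). That fit took all 28006 genes with at least 1 read, including those with fewer reads than any member. With each library left out it was 4 to 21 of 97 (against 3.47 to 8.48% of all genes). It was 21 without PBS 1 (against 4.51%), where 10 of those tested had passed the filter in the Akkermansia libraries and PBS 1 alone and so had to differ. DESeq2 gave no adjusted p for 12 members, Ighv1-74 and Ighv9-4 among them, and called the other 8 of the 10. Ighv9-4 was not called with a minimum of 20 reads (adjusted p = 0.0524). With log2(FPKM + 0.1), Igkv12-44 (0.0587), Ighv1-19 (0.0505), Ighv1-55 and Ighv1-81 were not called, and with log2(FPKM + 1) Ighv1-55 and Ighv1-81 were not; the cause was not tested. Some named segments outside the 10 were called elsewhere: Igkv10-94 with DESeq2 (0.0135), limma-voom (0.0424) and no filter (0.000355), Ighv1-53 with DESeq2 (0.00985) and no filter (0.00017), and Igkv1-110 with no filter (0.0131).

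With the replicate number as a block, 21 members were higher (21.6%, against 7.96% of all genes) and 0 lower (against 8.81%), with Ighv1-26 (0.0479), Ighv3-6 (0.0131), Ighv1-53 (0.00387) and Igkv10-94 (0.0196) among them. Same-numbered libraries of the 2 groups had correlations of their deviations from the group means of 0.106, 0.0968 and 0.0409, so the number is not taken as a pairing. Every library correlated best with its own number, a hint from the data. The free-text descriptions also give libraries of 1 number the same cell name, while the cell type entry is the same for all.

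The log2 ratio of summed levels ran, with each library left out, from 0.437 to 1.47 for Ighv, 0.341 to 1.12 for Igkv and 0.280 to 1.21 for Iglv, the highest without PBS 1 each time. Among named segments none of which was called, the log2 fold change with each library left out ran from -0.434 to 1.35 for Ighv5-17, -0.277 to 0.985 for Ighv10-1, -0.038 to 0.317 for Igkv1-117, -0.012 to 1.68 for Igkv6-23 and -1.28 to 1.55 for Igkv6-32. Igkv6-32 was at 0.222 with limma-voom, 0.116 with log2(FPKM + 1) and 0.255 with log2(FPKM + 0.1), where the log scale gives its high count in PBS 1 less weight. No other named segment changed direction in any fit. A median of 106 reads per member over 6 libraries limits what can be seen of single segments.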
